A study of Mus musculus with 6 samples.

Results

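Cd163l1, Tmem176a, Tmem176b, Blk, Sox13, Il23r and Il1r1 are 7 mouse genes associated with T cells that make interleukin 17, and in particular with gamma delta T cells. Their transcripts were measured in lymph node T cells with Affymetrix mouse arrays that carry a single sample each. Every probe set whose annotation named 1 of these genes alone was taken, which gave 10 probe sets of 45037 other than controls. These covered 6 of the 7 genes. No probe set was assigned to Il23r alone, so Il23r was not analysed here. The 7 genes were picked with results of this same comparison in view, so their differences between the groups are given as a description. The count of limma calls among them is printed only for scale.

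The study compared T cells from lymph nodes that were Ezh2 deficient with those of Ezh2 fl/fl genotype, on 3 arrays each. Ezh2 is the histone methyltransferase of a Polycomb complex that marks silenced genes, and fl/fl in the usual notation marks alleles flanked by loxP sites. The labels name no Cre driver, strain, age, sex or batch, do not say whether the deficient cells came from single or pooled animals, and do not say whether the samples of a group came from separate animals. The spread between arrays may therefore be partly technical. Replicates are numbered here within each group in sample order, and a number that both groups share does not mark a pair.

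Type 17 T cells respond to interleukin 23 and interleukin 1 beta, and release interleukin 17. In mouse lymph nodes a large part of the cells poised to do so at rest are gamma delta T cells, whose receptor is built from gamma and delta chains in place of alpha and beta chains. Gamma delta T cells are a small minority of lymph node T cells, so transcripts particular to them are a small part of a bulk sample. In bulk RNA, fewer cells of a type and less RNA per cell cannot be told apart.

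Tmem176a and Tmem176b are on opposite strands of chromosome 6, and the annotated span of Tmem176b runs past both ends of that of Tmem176a. A start region of each is shown here because these 2 regions overlap, while the probe sets of the genes had unlike values. The windows run from 250 bases before to 50 bases after an annotated start, are taken from RefSeq on the GRCm38.p6 assembly, and are printed 5′ to 3′ on the strand of each gene. Both genes have several annotated starts, and 1 window of each is shown. Capitals mark the 208 bases that both windows contain, on opposite strands. The Tmem176a window is chr6:48841233-48841532 on the plus strand and the Tmem176b window is chr6:48841325-48841624 on the minus strand.
Tmem176a: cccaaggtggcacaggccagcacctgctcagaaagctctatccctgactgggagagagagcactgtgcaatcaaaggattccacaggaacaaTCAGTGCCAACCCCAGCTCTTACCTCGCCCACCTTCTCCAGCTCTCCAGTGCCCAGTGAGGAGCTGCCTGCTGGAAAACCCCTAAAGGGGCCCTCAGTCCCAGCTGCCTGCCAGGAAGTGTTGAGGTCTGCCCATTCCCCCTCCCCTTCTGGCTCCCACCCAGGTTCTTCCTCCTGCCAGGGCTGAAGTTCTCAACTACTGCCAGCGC
Tmem176b: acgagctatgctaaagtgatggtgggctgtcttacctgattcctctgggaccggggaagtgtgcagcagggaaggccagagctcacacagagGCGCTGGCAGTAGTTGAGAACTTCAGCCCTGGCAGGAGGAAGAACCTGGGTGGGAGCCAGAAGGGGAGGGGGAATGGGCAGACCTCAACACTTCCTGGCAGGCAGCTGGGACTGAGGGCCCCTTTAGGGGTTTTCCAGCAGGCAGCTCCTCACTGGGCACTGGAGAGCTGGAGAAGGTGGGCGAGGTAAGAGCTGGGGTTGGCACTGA
The shared stretch had a G and C content of 62.0%. The RefSeq table held 10 such windows for 6 of the 7 genes. The motif AGGTCA, a half-site that nuclear receptors bind, was searched for on both strands. It was present in 1 of the 10 windows, that of Il23r, where it occurred 2 times and did not overlap itself. It was present in 16.3% of the 32851 windows of 300 bases in the table.

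Values are intensities that were quantile normalised here, and differences are on the log2(intensity + 43.3) scale as Ezh2 deficient minus Ezh2 fl/fl. The added 43.3, at the 20th percentile of the values above 0, shrinks the differences of dim probe sets. A probe set was tested where its mean log2 value reached the 40th percentile, which corresponds to an intensity of 113. This left 8 of the 10 probe sets, from Cd163l1, Tmem176a, Tmem176b, Blk and Sox13. Both Il1r1 probe sets lay under the limit.

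The targeted gene was lower in the cells labelled deficient. Ezh2 read 282, 289 and 276 in the Ezh2 deficient arrays, against 579, 684 and 801 in the Ezh2 fl/fl arrays. The deficient mean was 41.0% of the Ezh2 fl/fl mean, a log2 difference of -1.16 (limma adjusted p = 0.0705). The exact permutation p was 0.10, the smallest that 3 arrays against 3 allow. T cell markers were bright: the CD3 chain gene Cd3d averaged 16496 ± 735 in deficient arrays and 16876 ± 440 in Ezh2 fl/fl arrays (SD, n = 3 each). Of 13 listed T cell markers with a probe set, 12 were bright enough to test, of which 5 were higher and 7 lower, around a median of -0.03. Thy1 averaged 11598 ± 715 in deficient arrays and 12230 ± 806 in Ezh2 fl/fl arrays (SD, n = 3 each). The CD8 chain gene Cd8b1 averaged 10914 ± 498 in deficient arrays and 12247 ± 79.1 in Ezh2 fl/fl arrays, with groups apart and a log2 difference of -0.17 (limma adjusted p = 0.581). The 5 Cd8a probe sets, named after their values were seen, ran from -0.23 to -0.06. The part of CD8 T cells in the values below was not tested. Ezh2 fl/fl replicate 1 was separated from the rest by the leading principal component, at 41.5 on an axis that placed the remaining 5 arrays between -15.1 and -1.48. The differences of the 8 tested probe sets are therefore also given without that array.

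Cd163l1 and 1 probe set of Tmem176a had the largest differences among the 10 probe sets, both lower in the deficient cells. The remaining genes differed little or unevenly. Of the 10 probe sets, 7 had a negative difference, 3 had a positive one, and 2 had groups that did not overlap, both lower in the deficient arrays. The 3 positive ones were that of Sox13 and both of Il1r1, which were too dim to measure. Over all 45037 probe sets, 6.08% had groups that did not overlap with the deficient arrays lower and 6.07% with the deficient arrays higher. By limma 0 of the 8 tested probe sets passed at an adjusted p under 0.05, where 0.0037% of all 27022 tested probe sets did. These shares are stated only for scale, because the genes were picked on the same comparison.

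**Figure D1:**
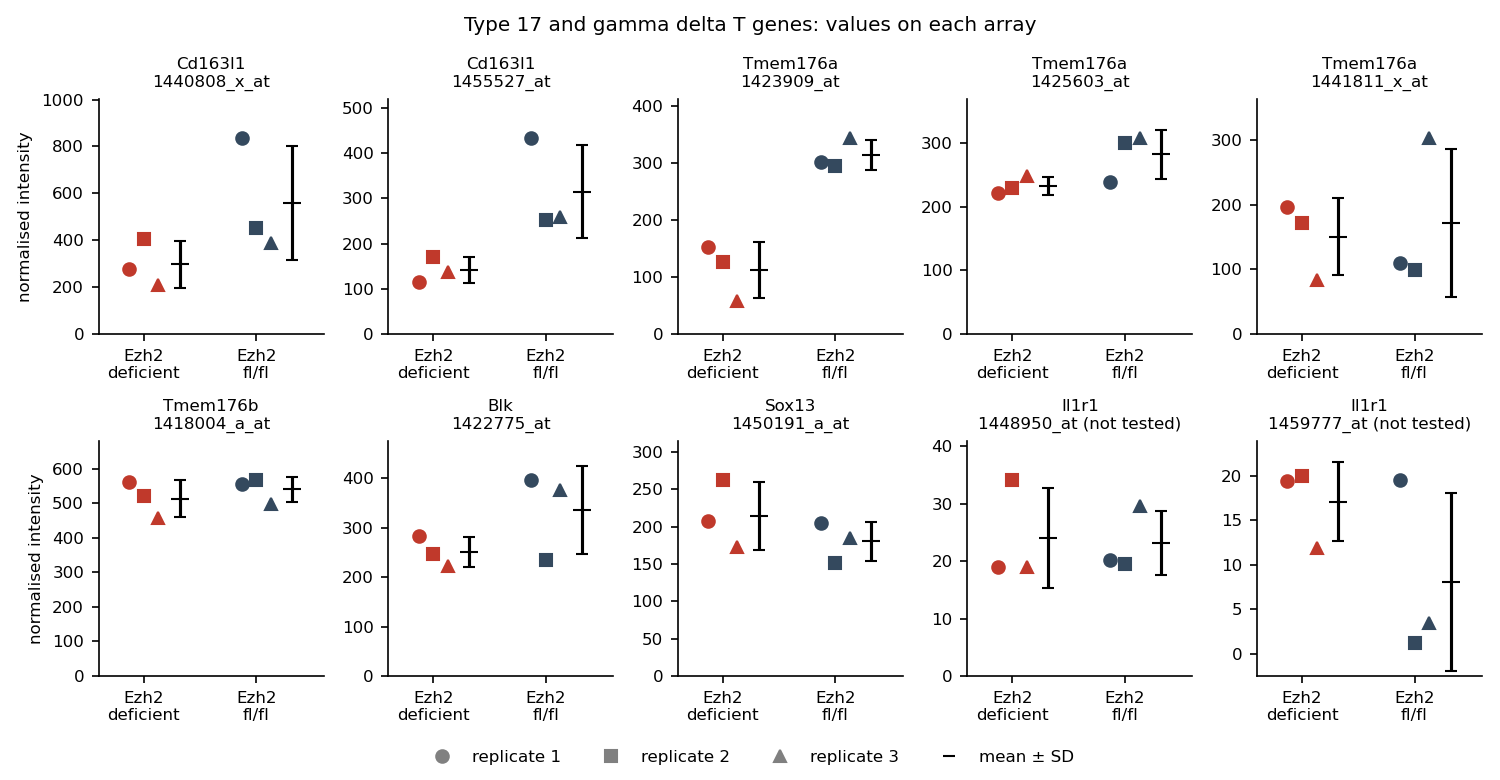
Normalised intensity (vertical axes, linear, each panel on its own scale) of the 10 probe sets in the Ezh2 deficient arrays (red, left) and the Ezh2 fl/fl arrays (dark, right), with replicates by symbol and the mean ± SD in black. The groups are apart for Cd163l1 1455527_at and Tmem176a 1423909_at, and overlap in the other 8 panels.

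Cd163l1 encodes a scavenger receptor with cysteine-rich domains, also called SCART1, which in mice is found on gamma delta T cells. Its probe set 1455527_at read 115, 171 and 138 in deficient replicates 1, 2 and 3, against 434, 253 and 260 in Ezh2 fl/fl replicates 1, 2 and 3. Every deficient array lay below every Ezh2 fl/fl array, and the highest Ezh2 fl/fl value was on replicate 1. The mean was 142 ± 28.1 in deficient cells and 315 ± 103 in Ezh2 fl/fl cells (SD, n = 3 each), so that 44.9% remained. The log2 difference was -0.93 (SE 0.21), or 1.91-fold lower on that scale.

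The other Cd163l1 probe set, 1440808_x_at, carries a suffix that marks possible matches to several transcripts. It read 278, 407 and 208 in the deficient arrays, against 836, 450 and 388 in the Ezh2 fl/fl arrays. Deficient replicate 2 lay above Ezh2 fl/fl replicate 3, so the groups overlapped, and 2 of the 3 deficient arrays lay below the lowest Ezh2 fl/fl array. The log2 difference was -0.79 (SE 0.28). Without Ezh2 fl/fl replicate 1 the differences were -0.71 on 1455527_at and -0.48 on 1440808_x_at, and this array is the one whose removal brought both closest to 0.

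A related receptor gene that lies near Cd163l1 on chromosome 7, 5830411N06Rik or Scart2, went the other way. It was named after its value was seen. It read 447, 569 and 433 in deficient arrays, against 437, 292 and 419 in Ezh2 fl/fl arrays, a log2 difference of 0.31 with overlapping groups (limma adjusted p = 0.716).

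Tmem176a and Tmem176b encode membrane proteins with several transmembrane passes, related to the MS4A family, that are abundant in type 17 lymphocytes and in dendritic cells. Tmem176a was read by 3 probe sets that did not give the same picture. On 1423909_at the deficient arrays read 153, 126 and 57.6, against 303, 294 and 344 in the Ezh2 fl/fl arrays. The 3 deficient arrays were all below the 3 Ezh2 fl/fl arrays, by a wide margin. The deficient mean was 112 ± 49.2 against 314 ± 26.5 in Ezh2 fl/fl cells (SD, n = 3 each), or 35.8% of it, with a log2 difference of -1.25 (SE 0.24). Without Ezh2 fl/fl replicate 1 it was -1.27. The deficient mean lay just under the testing limit of 113, with deficient replicate 3 well under it. The probe set thus reached the limit through its Ezh2 fl/fl values.

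The second Tmem176a probe set, 1425603_at, read 221, 230 and 249 in deficient arrays, against 239, 301 and 308 in Ezh2 fl/fl arrays. Deficient replicate 3 lay just above Ezh2 fl/fl replicate 1, and the log2 difference was -0.23 (SE 0.14), or -0.33 without Ezh2 fl/fl replicate 1. On the deposited values, before quantile normalisation, the groups of this probe set did not overlap, at 214, 228 and 242 in deficient arrays against 260, 297 and 307 in Ezh2 fl/fl arrays. The remaining one, 1441811_x_at, also carries the suffix that marks possible matches to several transcripts. It was scattered in both groups, at 198, 171 and 83.4 in deficient arrays against 111, 99.9 and 304 in Ezh2 fl/fl arrays. Its log2 difference was -0.07 (SE 0.36). Leaving out Ezh2 fl/fl replicate 1 gave -0.25, leaving out Ezh2 fl/fl replicate 3 gave 0.33, and leaving out deficient replicate 3 gave 0.21.

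Tmem176b had a single probe set, which was close to level between the groups. It read 563, 522 and 457 in deficient arrays, against 556, 567 and 498 in Ezh2 fl/fl arrays. The log2 difference was -0.07 (SE 0.11), or -0.05 without Ezh2 fl/fl replicate 1 and 0.01 without deficient replicate 3. The 2 genes whose printed windows overlap therefore gave -1.25 on the Tmem176a probe set of largest difference and -0.07 on Tmem176b. The brighter Tmem176a probe set 1425603_at gave -0.23. Within each array, Tmem176a 1423909_at minus Tmem176b was -1.63, -1.74 and -2.31 in deficient arrays and -0.79, -0.85 and -0.48 in Ezh2 fl/fl arrays on the log2 scale. The same subtraction with Tmem176a 1425603_at gave -1.20, -1.05 and -0.78 in deficient arrays and -1.09, -0.83 and -0.62 in Ezh2 fl/fl arrays, and these groups overlapped. The unlike behaviour of the gene pair thus rested on 1 of the 3 Tmem176a probe sets.

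Tmem176a and Ezh2 lie on the same chromosome, with 32 annotated protein-coding genes between them. The nearest protein-coding genes on the Tmem176b side are Gimap3, Gimap5 and Gimap1, which encode lymphocyte GTPases. Their log2 differences were 0.03, 0.12 and 0.13, none past an adjusted p of 0.05. On the other side, the probe sets of Aoc1 and Doxl1 were too dim to test.

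**Figure D2:**
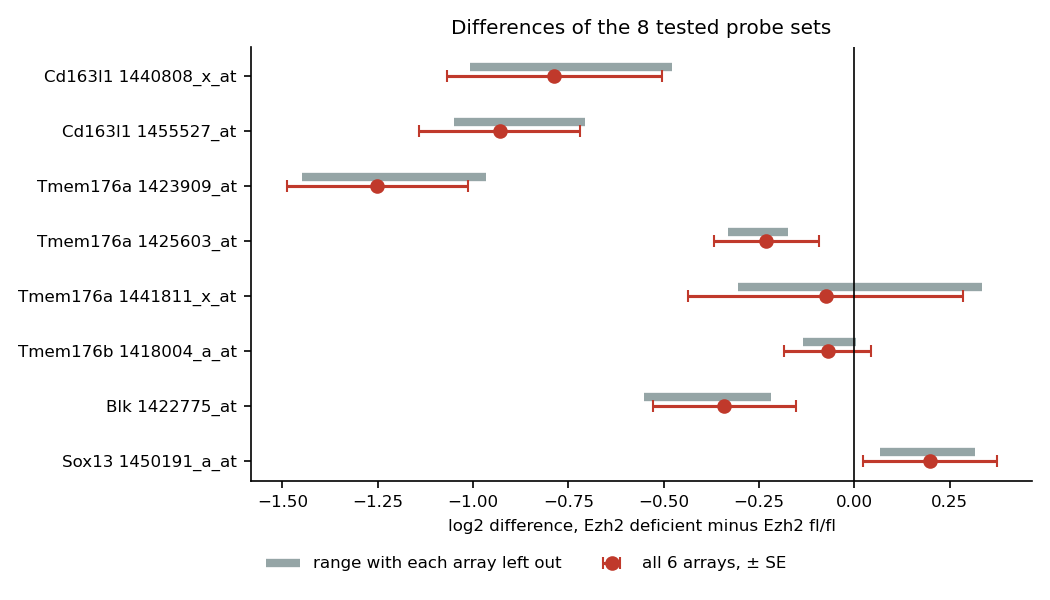
Log2 difference, Ezh2 deficient minus Ezh2 fl/fl (horizontal axis), of the 8 tested probe sets over all 6 arrays with its SE (red), and the range of the difference when each array in turn is left out (grey bars). Both Cd163l1 probe sets, Tmem176a 1423909_at and 1425603_at, and Blk stay below 0 with any array left out. Sox13 stays above 0, and Tmem176a 1441811_x_at and Tmem176b cross 0.

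Blk encodes a Src family kinase best known in B cells, which in mice is also needed for gamma delta T cells that make interleukin 17. Its probe set read 282, 247 and 223 in deficient arrays, against 397, 234 and 376 in Ezh2 fl/fl arrays. Ezh2 fl/fl replicate 2 lay among the deficient arrays, so the groups overlapped. The log2 difference was -0.34 (SE 0.19). Leaving out Ezh2 fl/fl replicate 1 gave -0.22, and leaving out replicate 2 of that group gave -0.55. Because B cells also express Blk, B cell markers are given beside it. Of 10 tested B cell markers, 6 were higher and 4 lower in the deficient arrays, around a median of 0.11, and their summed intensity ran from 12018 to 13159 in deficient arrays and from 12770 to 14293 in Ezh2 fl/fl arrays. Most of that sum came from the immunoglobulin heavy chain gene Ighm, at 10456 ± 655 in deficient arrays and 11199 ± 812 in Ezh2 fl/fl arrays (SD, n = 3 each). Its other tested probe sets ran from -0.42 to 0.03, with groups apart for -0.42. The B cell markers Cd79b and Ms4a1 were far dimmer, with means of 369 and 181 in deficient arrays and 402 and 205 in Ezh2 fl/fl arrays. The sum thus mainly follows Ighm, and whether it measures B cells was not tested. Pou2af1, a transcriptional coactivator gene of B cells, averaged 651 ± 77.5 in deficient arrays and 538 ± 34.8 in Ezh2 fl/fl arrays, with overlapping groups and a log2 difference of 0.25 (limma adjusted p = 0.698). The B cell factor Pax5 was near the limit of testing, at 148 ± 39.7 in deficient arrays and 107 ± 15.7 in Ezh2 fl/fl arrays, with every deficient array above every Ezh2 fl/fl array. Cd79a, Blnk, Fcer2a, Cr2 and Fcrla, also B cell markers, were too dim to test. The part of B cells in the Blk value was not tested.

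Sox13 encodes an HMG box transcription factor of the gamma delta lineage. It read 207, 262 and 173 in deficient arrays, against 205, 152 and 184 in Ezh2 fl/fl arrays. Of the deficient arrays, 2 lay above all Ezh2 fl/fl arrays and the other lay inside their range. The log2 difference was 0.20 (SE 0.18), on the opposite side of 0 from Cd163l1, Tmem176a and Blk. Leaving out deficient replicate 2 gave 0.07 and leaving out deficient replicate 3 gave 0.32. Leaving out Ezh2 fl/fl replicate 1 gave 0.28, and leaving out replicate 2 of that group gave 0.10.

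Il1r1 encodes the signalling receptor for interleukin 1. Both of its probe sets were below 43.3 on all 6 arrays. Probe set 1448950_at read 19.0, 34.1 and 18.9 in deficient arrays, against 20.2, 19.5 and 29.5 in Ezh2 fl/fl arrays, and 1459777_at read 19.5, 19.9 and 12.0 in deficient arrays, against 19.5, 1.23 and 3.47 in Ezh2 fl/fl arrays. Differences at this level cannot be measured on these arrays, and no fold change is given.

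The annotation also named receptor gamma chain V segments, which are carried by gamma delta T cells. All probe sets it named are given. Trgv4 on 1422189_x_at read 583, 640 and 422 in deficient arrays, against 1029, 623 and 620 in Ezh2 fl/fl arrays, and on 1450521_a_at 373, 404 and 257 in deficient arrays, against 721, 371 and 383 in Ezh2 fl/fl arrays. The log2 differences were -0.42 (limma adjusted p = 0.712) and -0.42 (limma adjusted p = 0.732), with overlapping groups. Without Ezh2 fl/fl replicate 1 they were -0.19 and -0.13, and without deficient replicate 3 they were -0.25 each. Another Trgv4 probe set, 1427802_a_at, was too dim to test. Trgv1 had the opposite sign, at 706, 651 and 518 in deficient arrays against 627, 362 and 398 in Ezh2 fl/fl arrays, a log2 difference of 0.43 (limma adjusted p = 0.695). Leaving out Ezh2 fl/fl replicate 1 gave 0.65, and leaving out replicate 2 of that group gave 0.29. None of these passed the test, and the V segments are similar enough in sequence that their probe sets may share targets.

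Cd163l1 1440808_x_at and the bright Trgv4 probe sets had similar profiles over the arrays within each group. After the group means were taken out, the Pearson correlation of Cd163l1 1440808_x_at over the 6 arrays was 0.96 with Trgv4 1422189_x_at and 0.95 with Trgv4 1450521_a_at. Trgv4 1422189_x_at carries the same suffix as Cd163l1 1440808_x_at, which marks possible matches to several transcripts. The values share the arrays, and Ezh2 fl/fl replicate 1 was the highest array in each. Without that array the correlations over 5 arrays were 0.90 and 0.86. For the other Cd163l1 probe set, 1455527_at, they were 0.78 and 0.80 with all arrays and 0.27 and 0.23 without Ezh2 fl/fl replicate 1. The dim Trgv4 probe set 1427802_a_at had 0.09 with Cd163l1 1440808_x_at and 0.03 with 1455527_at over the 6 arrays. Strong correlations were not particular to Cd163l1 and Trgv4. Trgv4 1422189_x_at had 0.80 with Sox13 and -0.94 with Tmem176a 1425603_at, and Trgv1 had 0.84 with Cd163l1 1440808_x_at. Without Ezh2 fl/fl replicate 1, Tmem176a 1423909_at had 0.89 and 0.92 with the bright Trgv4 probe sets and 0.996 with Trgv1. The difference within each array, Cd163l1 1455527_at minus Trgv4 1422189_x_at, was -1.98, -1.67 and -1.36 in deficient arrays and -1.17, -1.17 and -1.13 in Ezh2 fl/fl arrays on the log2 scale, with the groups apart. For Cd163l1 1440808_x_at the same subtraction gave -0.97, -0.60 and -0.89 in deficient arrays and -0.29, -0.43 and -0.62 in Ezh2 fl/fl arrays, and the groups overlapped. Against the other bright Trgv4 probe set, 1450521_a_at, Cd163l1 1440808_x_at gave -0.38, 0.01 and -0.26 in deficient arrays and 0.20, 0.25 and 0.01 in Ezh2 fl/fl arrays, with the groups apart by a narrow margin. Cd163l1 1455527_at was also apart and lower against it, by -0.51. Against Trgv1, which was itself higher in the deficient arrays, both Cd163l1 probe sets were apart and lower, by -1.22 on 1440808_x_at and -1.36 on 1455527_at. All these subtractions carry the difference of Cd163l1 itself, which was picked on the same comparison. Groups apart in them are therefore a description and not a separate result.

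**Figure D3:**
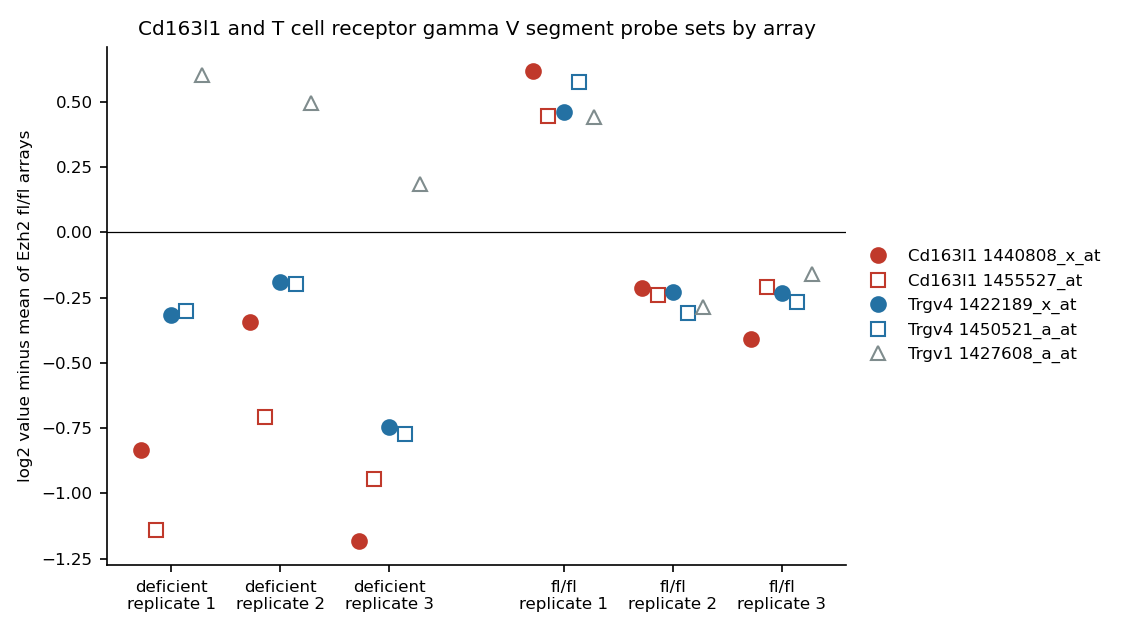
Log2 value minus the mean of the 3 Ezh2 fl/fl arrays (vertical axis) of Cd163l1 (red), Trgv4 (blue) and Trgv1 (grey triangles) on each array, with the Ezh2 deficient arrays on the left. Ezh2 fl/fl replicate 1 is at 0.44 to 0.62 for all 5 probe sets, and deficient replicate 3 is the lowest array for both Trgv4 probe sets and for Cd163l1 1440808_x_at.

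Among themselves the 8 tested probe sets did not vary as a unit. The 2 Cd163l1 probe sets had a within-group correlation of 0.86 over the 6 arrays. Tmem176a 1423909_at and 1441811_x_at had 0.73, whereas 1425603_at was at -0.29 with the first and 0.17 with the second. Sox13, although higher in the deficient arrays, had a within-group correlation of 0.79 with Cd163l1 1440808_x_at. The mean standardised profile of the brightest tested probe set of each gene was lowest in deficient replicate 3, at -0.95, and highest in Ezh2 fl/fl replicate 1, at 0.68. The 5 other genes with the most similar profile over the 6 arrays were Gnai2, Tmem214, Anapc15, Ier3ip1 and Mup5, with Pearson correlations from 0.982 to 0.987. Correlations above 0.9 were reached by 157 of 12270 genes, so likeness over 6 arrays singles out few genes only by rank.

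Other genes of these pathways were taken from 8 lists, without the 7 genes, each gene by its brightest tested probe set. In all, 101 distinct genes were tested, of which 59 were higher and 42 lower in the deficient arrays. By limma 0 passed at an adjusted p under 0.05, as did 0% of all 12275 genes tested by brightest probe set. At an unadjusted p under 0.05 there were 12 higher and 8 lower, where 3.92% of all tested genes were past it on the higher side and 4.29% on the lower side, 8.21% in all. Groups did not overlap for 13 of the 101 on the higher side and 7 on the lower side, against 6.4% and 7.8% of all tested genes. The count of 20 at an unadjusted p became 12 without Ezh2 deficient replicate 2. The lowest adjusted p among the genes was 0.333, for Cblb.

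**Figure D4:**
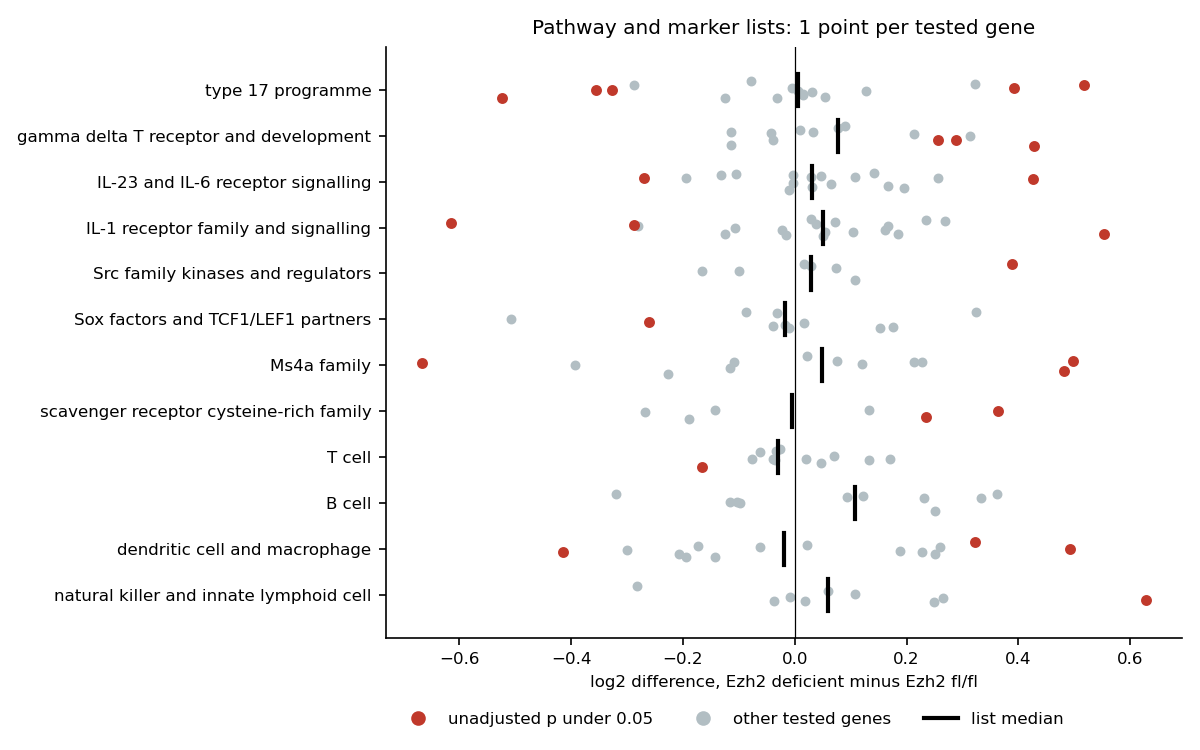
Log2 difference, Ezh2 deficient minus Ezh2 fl/fl (horizontal axis), with 1 point per tested gene of each pathway list and marker list. Red points have an unadjusted p under 0.05 and black bars are list medians, which run from -0.03 to 0.11.

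The type 17 programme list held 17 tested genes, with 9 higher and 8 lower and a median difference of 0.01, where the median of all tested genes was -0.01. At an unadjusted p under 0.05, 2 were higher and 3 lower. Il17a, the defining cytokine, read 280, 269 and 375 in deficient arrays, against 301, 282 and 338 in Ezh2 fl/fl arrays. Its groups overlapped fully, with a log2 difference of -0.01 (limma adjusted p = 0.995). Rora, a nuclear receptor gene of the type 17 programme, was at 0.03 on its brightest probe set (limma adjusted p = 0.960) and from -0.18 to 0.39 on the other tested ones. Il17f was not analysed here.

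Ccr6, the chemokine receptor of type 17 cells, read 492, 426 and 370 in deficient arrays, against 513, 513 and 617 in Ezh2 fl/fl arrays. Each deficient array was below each Ezh2 fl/fl array, with a log2 difference of -0.33 (limma adjusted p = 0.657). The lymphotoxin gene Lta was at -0.35 (limma adjusted p = 0.589). The chemokine receptor gene Cxcr6, named after its value was seen, was at -0.52 with overlapping groups (limma adjusted p = 0.689), and its dimmer probe set gave -0.34. Its highest array was Ezh2 fl/fl replicate 1, at 2648. Ccr2 and Il17re were also named after their values were seen. Ccr2 was at 0.01 on its brightest probe set. Its other probe sets gave -0.63, -0.55 and -0.43, each with groups apart, the last too dim to test (limma adjusted p = 0.614 and 0.617 for the tested ones). Il17re was below 0 on all its probe sets, from -0.38 to -0.28. On the other side were the cytokine gene Il21 at 0.52 (limma adjusted p = 0.651) and Maf, a transcription factor that interleukin 17 producing gamma delta T cells need in mice, at 0.39 (limma adjusted p = 0.672). All 6 Maf probe sets had a positive difference, from 0.32 to 0.63. Ramp1 and Batf, also named after their values were seen, were at 0.32 and 0.13 with overlapping groups. The dimmer Ramp1 probe sets gave 0.20 and -0.32. The list as a whole had 9 genes higher and 8 lower.

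The list of gamma delta receptor and development genes held 13 tested genes, with 9 higher and 4 lower, a median of 0.08, and 3 past an unadjusted p of 0.05, all higher. These were Id3, an inhibitor of E proteins, at 0.43, Egr2, a transcription factor induced by receptor signalling, at 0.26, and the interleukin 2 and 15 receptor chain gene Il2rb at 0.29, with adjusted p from 0.619 to 0.682 by limma. Id3 read 1217, 1463 and 1046 in deficient arrays, against 844, 856 and 1021 in Ezh2 fl/fl arrays, with no overlap. Cd27, a receptor that in mice is absent from the interleukin 17 producing gamma delta cells, was at -0.04. The HMG box gene Sox4 was at -0.04 on its brightest probe set and from -0.29 to 0.25 on the other tested ones.

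For the cytokine receptors the members of the set could not be read, since Il23r had no value and Il1r1 was dim, but partners were measured. Il12rb1, the other chain of the interleukin 23 receptor, read 322, 333 and 284 in deficient arrays, against 285, 408 and 357 in Ezh2 fl/fl arrays, a log2 difference of -0.13 (limma adjusted p = 0.872). Of 17 tested genes of interleukin 23 and interleukin 6 receptor signalling, 10 had a positive and 7 a negative difference, around a median of 0.03. Those past an unadjusted p of 0.05 were the kinase gene Tyk2 at -0.27 and the shared receptor chain gene Il6st at 0.43 (limma adjusted p = 0.636 each). The other tested Tyk2 probe set went the opposite way, at 0.38 with overlapping groups, and the other 3 of Il6st ran from 0.07 to 0.27. The transcription factor genes Stat3 and Stat4 were at 0.14 and 0.20. The other 3 Stat3 probe sets were also above 0, at 0.21, 0.22 and 0.46, the last with a limma adjusted p of 0.427, and the groups were apart for 0.22 and 0.46.

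Of 19 tested genes of the interleukin 1 receptor family and its signalling, 12 lay above 0 and 7 below it, around a median of 0.05, with 3 past an unadjusted p of 0.05. The ligand gene Il1b was dim and read 128, 143 and 146 in deficient arrays, against 257, 204 and 248 in Ezh2 fl/fl arrays. Its groups did not overlap, with a log2 difference of -0.62 (limma adjusted p = 0.484). The decoy receptor gene Il1r2 read 191, 150 and 158 in deficient arrays, against 89.7, 71.0 and 147 in Ezh2 fl/fl arrays. The log2 difference was 0.55 (limma adjusted p = 0.654). The Ezh2 fl/fl mean of Il1r2, 102, lay under the testing limit, so its probe set reached that limit through its deficient values. The kinase gene Irak2 was at -0.29 (limma adjusted p = 0.642) and the interleukin 18 receptor gene Il18r1 at 0.27. The receptor accessory chain gene Il1rap was at 0.19 on its brightest probe set and -0.26 on the next, each with groups apart, so its probe sets went in opposite directions.

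Relatives of the 7 genes are set beside them. Of 12 tested Ms4a family genes, to which Tmem176a and Tmem176b are related, 7 were higher and 5 lower, around a median of 0.05. Ms4a4c averaged 5025 ± 611 in deficient arrays and 3576 ± 311 in Ezh2 fl/fl arrays (SD, n = 3 each), a log2 difference of 0.48 (limma adjusted p = 0.368) and 0.58 on its other probe set. Ms4a6d was at 0.50 (limma adjusted p = 0.563) and the dim Ms4a15 at -0.67 (limma adjusted p = 0.672). Of 6 tested genes of the scavenger receptor cysteine-rich family, to which Cd163l1 belongs, 3 were higher and 3 lower. Lgals3bp was at 0.36, and Cd6 and Cd5, which encode surface proteins of T cells, were at 0.23 and 0.13.

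Among 7 tested Src family kinases and their regulators, the family of Blk, 5 were higher and 2 lower. Cblb encodes a ubiquitin ligase that dampens T cell activation and averaged 2860 ± 148 in deficient arrays and 2173 ± 107 in Ezh2 fl/fl arrays (SD, n = 3 each). The adaptor gene Pag1 and the inhibitory kinase gene Csk were at -0.17 and -0.10. Lck was not analysed here. Among 11 tested Sox genes and partners of TCF1 and LEF1, 4 were higher and 7 lower. The corepressor gene Tle3 was at -0.26 (limma adjusted p = 0.658), and Sox6 and Sox12 were at -0.51 and 0.32 with overlapping groups.

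Markers of other cells that express some of the 7 genes are given for the same arrays. Of 14 tested dendritic cell and macrophage markers, 7 lay on each side of 0, around a median of -0.02, and their summed intensity ran from 3339 to 3904 in deficient arrays and from 3375 to 3490 in Ezh2 fl/fl arrays. The invariant chain gene Cd74 averaged 683 ± 88.7 in deficient arrays and 539 ± 87.5 in Ezh2 fl/fl arrays, with groups apart. H2-Eb1 averaged 490 ± 63.6 in deficient arrays and 405 ± 67.1 in Ezh2 fl/fl arrays. H2-Aa, which with H2-Eb1 encodes class II chains, was at 0.49 on its brightest probe set and at -0.12 and 0.30 on the other tested ones. The growth factor receptor gene Csf1r was at -0.42 on its brightest probe set and at 0.12 and 0.29 on the others, so its probe sets went in opposite directions. The defining markers Itgam, Batf3, Flt3, Cd209a, Clec10a, C1qa, C1qb and Mertk were too dim to test. Itgax, named after its value was seen, was dim, at 137 ± 27.2 in deficient arrays and 133 ± 21.2 in Ezh2 fl/fl arrays (SD, n = 3 each). Of 9 natural killer and innate lymphoid cell markers, 6 were higher and 3 lower, around a median of 0.06, and their sum ran from 15153 to 16192 in deficient arrays and from 14001 to 16335 in Ezh2 fl/fl arrays. Its brightest genes, Klrd1 and Id2, are also expressed by T cells and were at 0.11 and 0.02. The granzyme gene Gzma was at 0.63 (limma adjusted p = 0.584) and Eomes at 0.27 and 0.41 on its 2 probe sets. The defining markers Ncr1, Klrb1b, Klra8, Klra1 and Kit were too dim to test. The part of these cells in the values of Tmem176a, Tmem176b and Blk was not tested.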

How the data were processed

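The deposited table holds 1 intensity per probe set and array on a linear scale for 45101 probe sets, made by the authors with software and settings not given in the sources used here. With 2% trimmed from either end, all arrays averaged 500.002, as a scaling to 1 target gives. Array medians differed by 15.2%, above a tolerance of 10%, so arrays were quantile normalised. Gene names came from the platform annotation. The test was limma 3.58.1 in R 4.3.3 (lmFit, then eBayes with an intensity trend, 4 residual degrees of freedom) over 27022 probe sets, 2-sided, with Benjamini-Hochberg adjustment over all of them and no covariate. The 64 control probe sets were left out. The limma step was tested on simulated data.

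The 7 genes and all lists were chosen with earlier results of these data known. Genes named from lists were the 3 of smallest unadjusted p (2 for marker lists, plus the 2 brightest) and genes central to the pathways. Others are stated as named after their values were seen. The number of arrays limits the precision. Alternatives were other scalings, pseudocounts, filters and eBayes settings, array weights, averages over a gene's probe sets, other thresholds, and each array left out.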

Additional observations from a re-analysis of the deposited data

How the results depend on the processing

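Over 15 alternatives the difference kept its sign in all 15 for both Cd163l1 probe sets (-1.01 to -0.48 on 1440808_x_at, -1.07 to -0.62 on 1455527_at), Tmem176a 1423909_at (-1.49 to -0.78) and 1425603_at (-0.33 to -0.16), Blk (-0.55 to -0.22) and Sox13 (0.07 to 0.32), in 14 for Tmem176b and in 13 for Tmem176a 1441811_x_at. Alternatives that changed only the filter or the eBayes settings leave the log2 difference itself unchanged, so they could not alter its sign. The median difference over all 10 probe sets was -0.15, and -0.25 to -0.13 with each array left out. It included both dim Il1r1 probe sets. The count of 1 called probe set over the whole array was 3 under the deposited scaling, 2 with its median centring, 3 by robust eBayes (statmod 1.5.0), 3 with array weights, 6 at an adjusted p under 0.1, and 1 to 6 with each array left out. The pathway count of 20 was 12 to 21 with each array left out. The median of the B cell, dendritic and natural killer markers together, 0.06, was 0.13 with median centring, -0.0020 without the filter, 0.093 with averages over each gene's probe sets, and -0.012 to 0.11 with each array left out. The cause of these shifts was not tested. The median of the type 17 list changed sign under the deposited scaling, at -0.03. Ezh2 kept its direction and its unadjusted p under 0.05 throughout, at -1.27 to -1.05 with each array left out. Probe sets near an intensity of 43.3, such as both of Il1r1, allow no statement. No paired analysis was possible because the labels give the 2 groups no replicate number in common. The replicate numbers used here were assigned within each group.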
